A study of Sus scrofa with 16 samples.

Results

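This section describes the probe sets for 8 genes of blood vessel growth and oxygen sensing in the left ventricle of exercise-trained and sedentary pigs: VEGFA, FLT1, NRP2, ANGPT1, FGFR1, EPAS1, ARNT and CA9. Every probe set that the platform annotation gives 1 of these symbols was included, whatever its signal, which made 18 of the 23935 probe sets tested. VEGFA had 4 of them, FLT1 and CA9 had 3 each, ANGPT1, FGFR1 and ARNT had 2 each, and NRP2 and EPAS1 had 1 each.

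VEGFA is a secreted growth factor that makes endothelial cells divide, migrate and become permeable. It acts through the receptor tyrosine kinases FLT1 and KDR, with neuropilins such as NRP2 as co-receptors, while ANGPT1 steadies vessels through the endothelial receptor TEK and FGFR1 receives fibroblast growth factors. When oxygen is low, the hypoxia-inducible factors HIF1A and EPAS1 are stabilised, pair with ARNT and switch on genes such as VEGFA and CA9. In heart muscle, capillary growth is one of the known accompaniments of physiological enlargement.

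The study concerns physiological enlargement of the left ventricle after exercise. The exercised group and the sedentary group each held 8 Yorkshire x Landrace swine, 4 females and 4 castrated males, aged 2 to 3 months. Left ventricular RNA was taken 4 to 5 weeks into the protocol, and the type and intensity of the exercise were not given in the sources used here. Each animal gave 1 Affymetrix porcine array, so replicates are separate animals. Signals are log2 values, on which a difference of 1 is a 2-fold difference. All differences are exercised minus sedentary. Unless said otherwise, they come from 1 limma fit over all probe sets, with Benjamini-Hochberg adjustment and a threshold of 0.05. Intervals are at 95% confidence. A probe set's signal depends on how well its probes bind, so no level is set against that of another probe set. An array gives no read depth, and the number of animals limits the precision.

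The 16 arrays were alike, with medians of 6.24, and each correlated with the rest at 0.988 to 0.994. The bacterial poly-A control transcripts, which are commonly added to RNA before labelling, nevertheless parted the arrays into 2 sets. Their mean signal over 42 control probe sets was 7.22 to 8.20 on 11 arrays (6 exercised and 5 sedentary) and 5.81 to 6.31 on the other 5 (exercised animals 7 and 8 and sedentary animals 6, 7 and 8). The labels do not say what the sets are. Both hold both groups, so each difference below was also computed with the set as a block and within each set. A difference given for each set is the plain difference between group means, without a sex term and without a test. Values for the higher set alone come from a limma fit of its arrays. The tissue showed the markers of heart muscle: the summed-up level of 13 cardiomyocyte genes, as their mean log2 signal, was 13.67 to 13.93 in exercised and 13.61 to 13.77 in sedentary animals. MYL2, the ventricular myosin light chain, stood at 14.61.

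None of the 18 probe sets passed the test for a change with training. With limma, 0 of the 18 passed the adjusted threshold, against a background of 13.4% of all probe sets (3197 of 23935). At an unadjusted p under 0.05 there were 6 of 18, against 27% of all. These were FLT1, NRP2, both probe sets of ARNT and the dimmer pair of CA9, with 4 lower and 2 higher in exercised animals. The shares of all probe sets depend on level. In a fit of those above the 40th percentile of mean level, 4.39% passed and 19.2% had an unadjusted p under 0.05. Of the 18, 9 lie below that percentile, so the pooled shares are a rough yardstick for them. The median difference of the 18 was -0.11, against 0.00 over all probe sets. Of the 18 differences 14 were below 0, several of them of the same gene, and in all 18 the exercised and sedentary ranges overlapped. The shares of all probe sets for both counts are not given here, so nothing particular to these genes is read from them. With the poly-A control set as a block, 0 of 18 passed again, against 18.1% of all, and 7 had an unadjusted p under 0.05, against 31.7%. This tissue is a mixture of cells, so fewer cells of a type and less RNA per cell cannot be told apart in any value below.

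**Figure D1:**
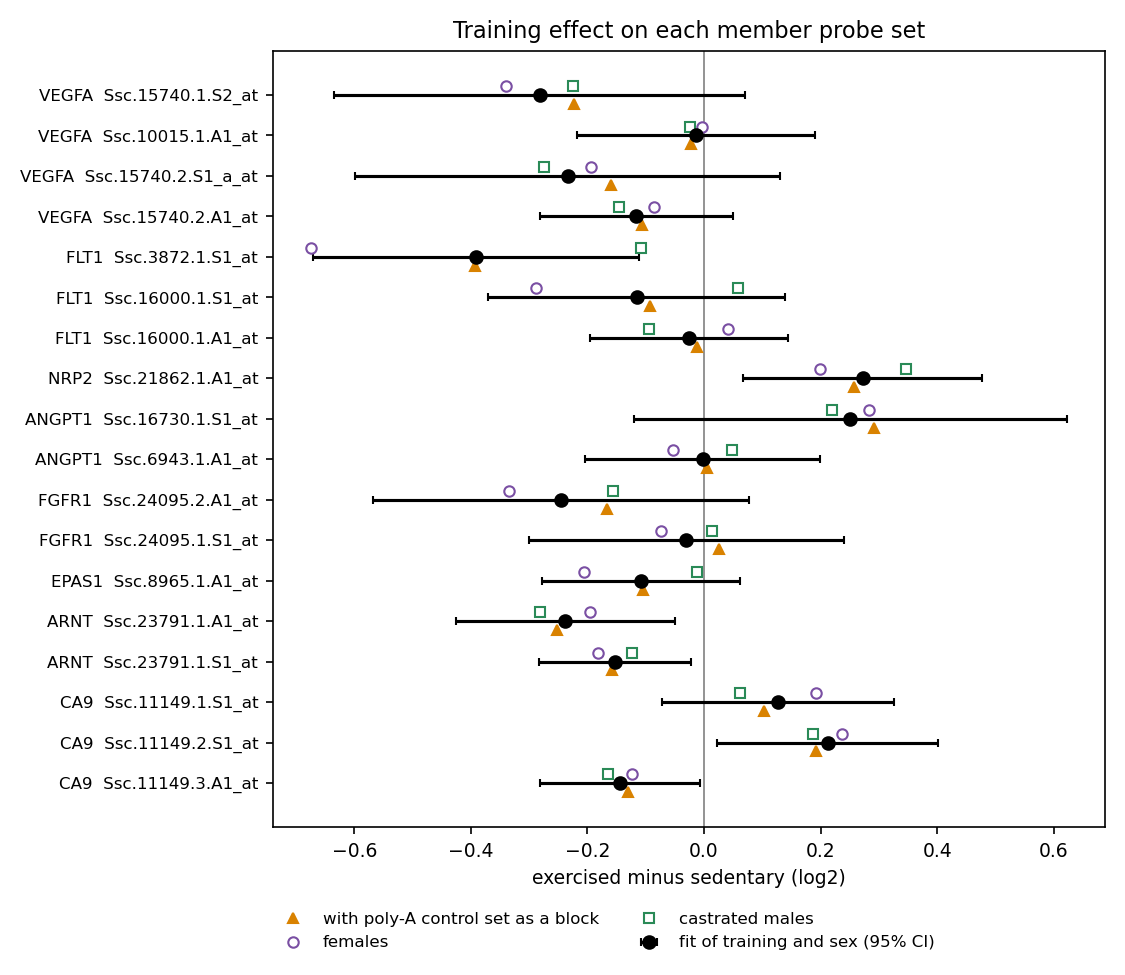
Training difference (log2, exercised minus sedentary) of the 18 probe sets, with points for the limma estimate bars for its 95% confidence interval over 8 animals a group, triangles for the fit with the poly-A control set as a block, and open symbols for females and castrated males. The intervals of FLT1 Ssc.3872.1.S1_at, NRP2, both ARNT probe sets and the CA9 probe sets Ssc.11149.2.S1_at and Ssc.11149.3.A1_at lie on 1 side of 0, and none of the 18 passed the adjusted threshold.

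VEGFA, the ligand, was measured by 4 probe sets, and none of them passed. On Ssc.15740.1.S2_at, the brightest, exercised animals ranged from 10.07 through a median of 10.57 to 11.07, and sedentary animals from 10.23 through 10.86 to 11.27. The means were 10.56 ± 0.37 and 10.84 ± 0.33 (SD, n = 8 each), a difference of -0.28 (SE 0.166, interval -0.64 to 0.07, limma adjusted p = 0.303). The groups overlapped widely: 5 of 8 exercised animals lay below the sedentary mean, and the lowest sedentary animal lay below the exercised median. The 3 lowest exercised animals, at 10.07, 10.19 and 10.26, stood beside a sedentary animal at 10.23.

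On Ssc.10015.1.A1_at, exercised animals ranged from 9.79 through 10.13 to 10.62 and sedentary animals from 10.05 through 10.12 to 10.44. The difference was -0.01 (SE 0.096, interval -0.22 to 0.19, limma adjusted p = 0.953). Most animals of both groups sat close together here, with exercised animal 5 high and exercised animal 8 low. Ssc.15740.2.S1_a_at had exercised values from 6.87 through 7.21 to 7.92 and sedentary values from 6.92 through 7.60 to 8.13, a difference of -0.23 (SE 0.172, interval -0.60 to 0.13, limma adjusted p = 0.427). Ssc.15740.2.A1_at was dim, from 4.02 through 4.20 to 4.46 in exercised and from 4.25 through 4.29 to 4.59 in sedentary animals. Its difference was -0.12 (SE 0.0777, interval -0.28 to 0.05, limma adjusted p = 0.375). The exercised animals spread below the sedentary ones on it, 6 of 8 under the sedentary mean, and their upper values overlapped.

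**Figure D2:**
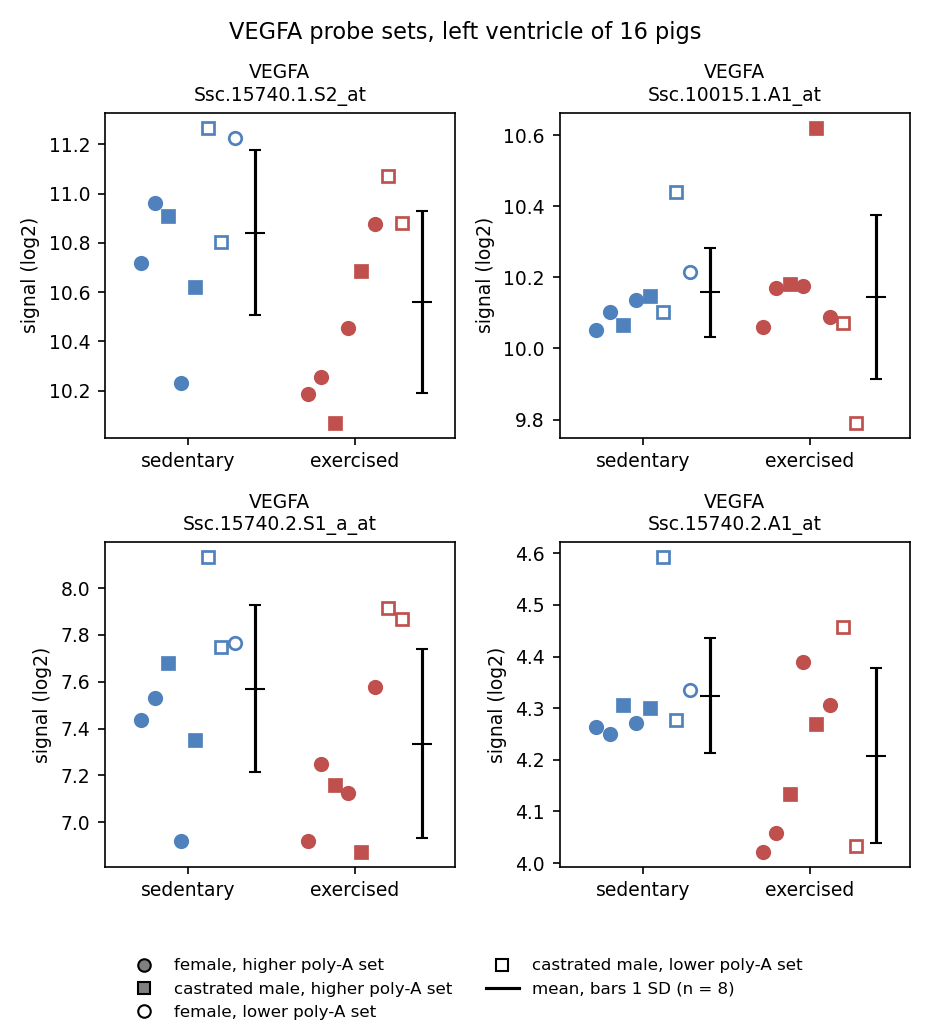
Signal (log2) of the 4 VEGFA probe sets in each of 16 animals, sedentary in blue and exercised in red. Circles are females, squares are castrated males, open symbols are arrays of the lower poly-A control set, and bars give the mean and 1 SD of 8 animals. On Ssc.15740.2.S1_a_at the open symbols are the highest of both groups. On Ssc.15740.1.S2_at the open symbols are also high, except sedentary animal 7 at 10.80, and on Ssc.10015.1.A1_at they are spread over the range.

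The 4 VEGFA probe sets were set against each other by the difference between 2 of them within each array, which removes their unequal brightness. None of the 6 pairs responded unequally to training beyond the spread between animals (exact permutation test over 12870 assignments, two-sided). The widest gap was between Ssc.15740.1.S2_at and Ssc.10015.1.A1_at. The first exceeded the second by 0.42 ± 0.47 in exercised and 0.68 ± 0.36 in sedentary animals (SD, n = 8 each), so that their responses differed by -0.27 (exact permutation p = 0.209, adjusted over the 6 pairs 0.567). The narrowest was between Ssc.15740.1.S2_at and Ssc.15740.2.S1_a_at, at -0.05 (exact permutation p = 0.692). The adjusted exact permutation p of the 6 pairs lay between 0.567 and 0.692. VEGFA as the mean of its 4 probe sets differed by -0.16 between the groups (limma adjusted p = 0.322).

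From animal to animal, 1 pair of VEGFA probe sets moved together. After the mean of each combination of training and sex was taken out, Ssc.15740.1.S2_at and Ssc.15740.2.S1_a_at correlated with Pearson's r = 0.818 over 16 arrays (permutation p = 0.00016, adjusted over 6 pairs 0.00096). Spearman's rho was 0.776 (permutation p = 0.00064, adjusted 0.00384), and r was 0.794 without the 2 arrays farthest from the median of the first probe set. Both probe sets were higher in the lower poly-A control set, by 0.48 and 0.60. That difference was not taken out of the 16 arrays, so it is part of these values and their permutation p. Within the 11 arrays of the higher poly-A control set the means were not taken out, so group differences are part of these values. There r was 0.716 (permutation p = 0.0171, adjusted 0.098), rho 0.709 (permutation p = 0.0180, adjusted 0.108) and r without the 2 farthest arrays 0.708. The other set has 5 arrays, too few for a correlation.

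Ssc.10015.1.A1_at did not follow the brightest probe set of the same gene. Their r was -0.159 (permutation p = 0.564) and rho -0.206, with r = -0.194 without the 2 farthest arrays. Within the higher set, with the means left in, r was -0.018. Against Ssc.15740.2.S1_a_at its r was -0.501 (permutation p = 0.0436, adjusted 0.0873) and rho -0.45 (permutation p = 0.0820). Without the 2 farthest arrays r was -0.079. Within the higher set, with the means left in, r was -0.531 (permutation p = 0.0487, adjusted 0.098), rho -0.491 and r without the 2 farthest arrays -0.334. The relation passed after adjustment in neither. The pair Ssc.15740.1.S2_at and Ssc.15740.2.A1_at gave r = 0.547 (permutation p = 0.0287, adjusted 0.0862), and the remaining 2 pairs gave 0.152 and 0.344 (permutation p = 0.578 and 0.190).

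**Figure D3:**
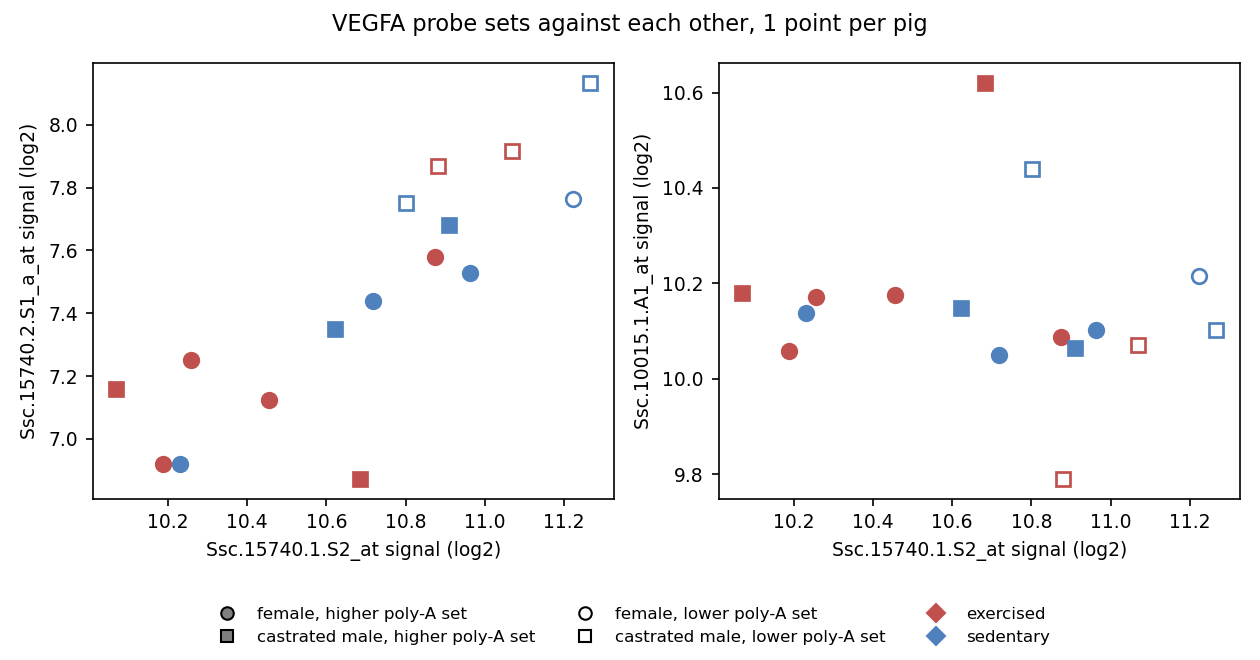
Signal (log2) of VEGFA probe sets plotted against Ssc.15740.1.S2_at, 1 point per animal. Against Ssc.15740.2.S1_a_at the points run along a rising line, with a residual r of 0.818, while against Ssc.10015.1.A1_at they show none, with a residual r of -0.159.

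FLT1, a VEGFA receptor of endothelial cells that also exists as a soluble trap for VEGFA, gave the widest training difference of the 18. On Ssc.3872.1.S1_at, exercised animals ranged from 5.61 through a median of 6.05 to 6.72, and sedentary animals from 6.04 through 6.61 to 6.90. The means were 6.13 ± 0.33 and 6.52 ± 0.27 (SD, n = 8 each), a difference of -0.39 (SE 0.131, interval -0.67 to -0.11) or 1.31-fold lower, with an unadjusted p of 0.00909 and a limma adjusted p of 0.0609. Of the exercised animals, 7 of 8 exercised animals lay below the sedentary mean, exercised animal 8 was the exception, and sedentary animals 5 and 6 lay among the exercised. The call turns on single arrays and on weighting. It passed without exercised animal 2 (-0.45, adjusted p = 0.0362, with 11.3% of all probe sets called), without exercised animal 8 (-0.47, adjusted p = 0.0226, with 12.4% called) or without sedentary animal 6 (-0.45, adjusted p = 0.0387, with 12.1% called). It did not pass in the other 13 such fits. It also passed with limma's array weights (-0.41, adjusted p = 0.0358, against 15.8% of all probe sets called).

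By sex, exercised females averaged 5.98 ± 0.31 and sedentary females 6.66 ± 0.17, a difference of -0.67 (limma adjusted p = 0.0573), while castrated males averaged 6.27 ± 0.33 and 6.38 ± 0.30, a difference of -0.11 (SD, n = 4 each). The difference between the sexes was -0.57 (interval -1.13 to -0.01, unadjusted p = 0.0475, limma adjusted p = 1), so it did not pass. It was the only one of 18 with an unadjusted p under 0.05, against 2.59% of all probe sets, of which 0 passed after adjustment. Sex and poly-A control set overlap here: of the 5 arrays in the lower set, 4 are of castrated males. The FLT1 difference was -0.55 in the higher set and -0.01 in the lower set, and the block gave -0.39 (limma adjusted p = 0.0552).

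The other FLT1 probe sets showed less. Ssc.16000.1.S1_at ranged from 5.83 through 6.08 to 6.48 in exercised and from 5.75 through 6.38 to 6.59 in sedentary animals, a difference of -0.12 (interval -0.37 to 0.14, limma adjusted p = 0.600). It differed by -0.29 in females and 0.06 in castrated males, neither of which passed. The dim Ssc.16000.1.A1_at ranged from 4.31 through 4.43 to 4.69 and from 4.28 through 4.44 to 4.76, a difference of -0.03 (interval -0.20 to 0.14, limma adjusted p = 0.879). On the latter the groups lay on top of each other. On Ssc.16000.1.S1_at the ranges overlapped, and 6 of 8 sedentary animals lay above the exercised mean. The mean of the 3 FLT1 probe sets differed by -0.18 (limma adjusted p = 0.215, with 8.56% of genes called on gene means).

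Because FLT1 marks endothelium, a list of endothelial markers was read beside it, in which FLT1 itself is counted. Of 16 endothelial markers measured, 0 rose and 0 fell on their brightest probe set, and their mean level was 7.88 to 8.36 in exercised and 8.07 to 8.35 in sedentary animals. Their levels ran from 5.32 for KDR to 10.83 for PECAM1, an adhesion molecule of endothelial junctions, on probe sets that cannot be compared in level. Over all genes on their brightest probe set, 5.11% rose and 4.91% fell. With the poly-A control set as a block 1 of the 16 passed, EGFL7, a secreted endothelial protein (0.35, limma adjusted p = 0.00659). On 29 endothelial probe sets 1 fell, against 6.88% of all probe sets: a dim probe set of VWF, the endothelial clotting factor (-0.39, limma adjusted p = 0.000548). The part of endothelial content in the FLT1 values was not tested.

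NRP2, a co-receptor for VEGF family ligands, had 1 probe set, Ssc.21862.1.A1_at. Exercised animals ranged from 5.05 through a median of 5.38 to 5.75 and sedentary animals from 4.85 through 5.12 to 5.32. The difference was 0.27 (SE 0.0963, interval 0.07 to 0.48) or 1.21-fold higher, with an unadjusted p of 0.0124 and a limma adjusted p of 0.0752. Exercised animal 7, at 5.05, lay below the sedentary mean, and the other 7 lay above it. Without that animal the difference was 0.33 and passed (limma adjusted p = 0.0304, with 11.7% of all probe sets called). It passed in none of the other 15 fits with 1 animal left out. The difference was 0.34 in the higher and 0.06 in the lower poly-A control set, and 0.26 with the block (limma adjusted p = 0.0731).

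ANGPT1, the ligand that activates TEK, did not pass on either probe set. On Ssc.16730.1.S1_at, exercised animals ranged from 4.56 through 4.84 to 5.61 and sedentary animals from 4.32 through 4.61 to 5.32, a difference of 0.25 (SE 0.175, interval -0.12 to 0.62, limma adjusted p = 0.397). Exercised animals 1 and 8, at 5.61 and 5.42, and sedentary animal 6, at 5.32, stood above the rest. On Ssc.6943.1.A1_at, among the dimmest of the 18, the ranges were 3.19 to 3.87 and 3.16 to 3.60, with medians of 3.35 and 3.47 and an interval of -0.20 to 0.20 (limma adjusted p = 0.991).

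FGFR1, a receptor for fibroblast growth factors, did not pass on either probe set. On Ssc.24095.2.A1_at, exercised animals ranged from 6.98 through 7.33 to 7.81 and sedentary animals from 7.24 through 7.52 to 8.03, a difference of -0.25 (SE 0.152, interval -0.57 to 0.08, limma adjusted p = 0.329). On Ssc.24095.1.S1_at the values were 6.59, 6.94 and 7.28 against 6.49, 6.96 and 7.32 for the same 3 points, a difference of -0.03 (interval -0.30 to 0.24, limma adjusted p = 0.916). Both groups were spread evenly over the same range on the latter.

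EPAS1, also called HIF-2 alpha, is the hypoxia-inducible factor typical of endothelium. Its probe set Ssc.8965.1.A1_at was bright and varied little, from 9.03 through 9.21 to 9.48 in exercised and from 9.15 through 9.33 to 9.60 in sedentary animals. The difference was -0.11 (SE 0.0801, interval -0.28 to 0.06, limma adjusted p = 0.431). It pointed opposite ways in the 2 poly-A control sets, -0.22 in the higher and 0.17 in the lower. Exercised animals 7 and 8 were the highest of their group.

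ARNT, the common partner of the hypoxia-inducible factors, was lower in exercised animals on both probe sets without passing on either. On Ssc.23791.1.A1_at, exercised animals ranged from 4.15 through a median of 4.27 to 4.37 and sedentary animals from 4.21 through 4.57 to 4.79. The means were 4.27 ± 0.08 and 4.51 ± 0.22 (SD, n = 8 each), a difference of -0.24 (SE 0.0882, interval -0.43 to -0.05) or 1.18-fold lower, with an unadjusted p of 0.0161 and a limma adjusted p of 0.0892. All 8 exercised animals lay below the sedentary mean in a narrow band, while 5 sedentary animals stood above every exercised one and sedentary animals 1, 6 and 8 lay within that band. It passed without sedentary animal 6 (-0.28, adjusted p = 0.0429), without sedentary animal 8 (-0.28, adjusted p = 0.0432, with 13% of all probe sets called) and with array weights (-0.27, adjusted p = 0.0339).

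The second ARNT probe set, Ssc.23791.1.S1_at, gave exercised values from 3.85 through 4.00 to 4.13 and sedentary values from 3.93 through 4.16 to 4.26. The difference was -0.15 (SE 0.0611, interval -0.28 to -0.02, unadjusted p = 0.0241, limma adjusted p = 0.116). Again all 8 exercised animals lay below the sedentary mean, and sedentary animal 7 was low. Without that animal it passed (-0.19, limma adjusted p = 0.0426, with 11.6% of all probe sets called). The high and low sedentary animals were not the same on the 2 probe sets: sedentary animal 7 was second highest on the first and lowest on the second, and sedentary animal 6 was among the lowest on the first and among the highest on the second.

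Averaged over its 2 probe sets, ARNT passed as lower in exercised animals, though neither probe set passed alone. The gene mean was 4.13 ± 0.07 in exercised and 4.33 ± 0.09 in sedentary animals (SD, n = 8 each), a difference of -0.20 (SE 0.0546, limma adjusted p = 0.0376 over 6765 genes, of which 8.56% were called). ARNT alone of the 6 genes with more than 1 probe set passed in this way. The sedentary SDs of the single probe sets were 0.22 and 0.11, wider than that of their mean. The gene mean was not fitted with an animal left out, with the poly-A block or with a filter on level, so how firm this call is was not tested. Both ARNT probe sets are dim, under the 40th percentile of mean level over all probe sets (5.57), and their difference was -0.29 and -0.20 in the higher and -0.15 and -0.06 in the lower poly-A control set. With the block the brighter gave -0.25 (limma adjusted p = 0.0561).

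CA9, a membrane carbonic anhydrase switched on by hypoxia-inducible factors, gave differences of both signs. On Ssc.11149.1.S1_at, exercised animals ranged from 6.10 through 6.31 to 6.59 and sedentary animals from 5.98 through 6.21 to 6.51, a difference of 0.13 (interval -0.07 to 0.33, limma adjusted p = 0.430). On Ssc.11149.2.S1_at the exercised values ran from 4.32 through 4.49 to 4.88 and the sedentary from 4.23 through 4.28 to 4.56, a difference of 0.21 (SE 0.0891, interval 0.02 to 0.40, unadjusted p = 0.0306, limma adjusted p = 0.136). Exercised animals 3 and 4 stood above all sedentary animals on it, and sedentary animal 3 stood apart from its group. On Ssc.11149.3.A1_at the exercised values ran from 3.23 through 3.27 to 3.46 and the sedentary from 3.23 through 3.44 to 3.61, a difference of -0.14 (SE 0.0645, interval -0.28 to -0.01, unadjusted p = 0.0411, limma adjusted p = 0.163). The mean of the 3 CA9 probe sets differed by 0.06 (limma adjusted p = 0.581). Of the 18 probe sets, 9 were under that 40th percentile, among them each one with an unadjusted p under 0.05 except that of FLT1.

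**Figure D4:**
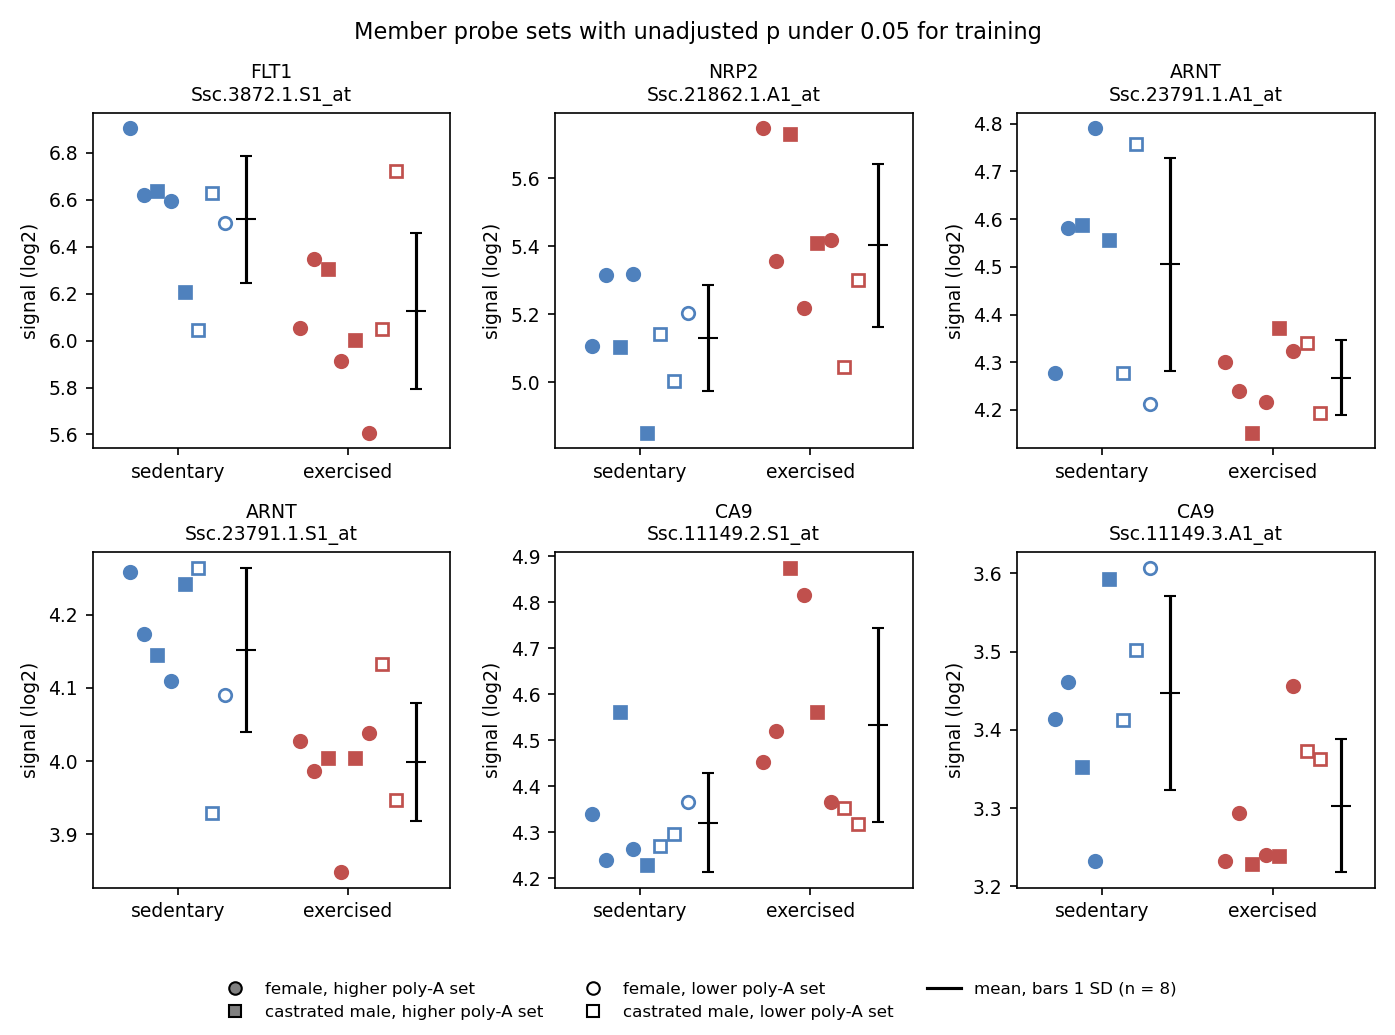
Signal (log2) in each of 16 animals of the 6 probe sets with an unadjusted p under 0.05 (FLT1, NRP2, both of ARNT and 2 of CA9), sedentary in blue and exercised in red. Symbols are as for VEGFA, and bars give the mean and 1 SD of 8 animals. All 8 exercised animals lie below the sedentary mean on both ARNT probe sets, and the ranges of the groups overlap in every panel.

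Within each sex, none of the 18 probe sets passed, against 3.72% of all probe sets in females and 3.77% in castrated males. Between females and castrated males, 0 of 18 had an unadjusted p under 0.05 (against 9.26% of all), and 0 passed (against 0.0919% after limma's adjustment). For VEGFA on Ssc.15740.1.S2_at the training difference was -0.34 in females and -0.22 in castrated males, and the difference between them had an interval of -0.82 to 0.59. For NRP2 it was 0.20 and 0.35, and for ARNT on Ssc.23791.1.A1_at -0.20 and -0.28. With 4 animals in each combination, differences between the sexes inside such intervals were not detectable.

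Between the poly-A control sets, with training and sex in the fit, 4 of the 18 probe sets passed, 2 of VEGFA and both of FGFR1. That share is near the background, since 23.4% of all probe sets passed, 12.3% higher and 11.1% lower in the lower set, and nothing particular to these genes is read from it. This comparison was added after the data had been seen. FGFR1 on Ssc.24095.2.A1_at averaged 7.90 in the 5 arrays of the lower set and 7.30 in the 11 of the higher, a difference of 0.63 (SE 0.0882, limma adjusted p = 0.000147), and every animal of the lower set lay above every animal of the higher. FGFR1 on Ssc.24095.1.S1_at averaged 7.21 and 6.82, a difference of 0.45 (SE 0.104, limma adjusted p = 0.0059). VEGFA on Ssc.15740.2.S1_a_at averaged 7.89 and 7.26, a difference of 0.60 (SE 0.141, limma adjusted p = 0.00615). VEGFA on Ssc.15740.1.S2_at averaged 11.05 and 10.54, a difference of 0.48 (SE 0.161, limma adjusted p = 0.0443).

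In size these differences between sets exceeded the training differences of the same probe sets. Within the sets the training difference of VEGFA on Ssc.15740.1.S2_at was -0.27 in the higher and -0.12 in the lower, and -0.22 with the block (limma adjusted p = 0.281). For Ssc.15740.2.S1_a_at it was -0.23 and 0.01. For Ssc.10015.1.A1_at, which the sets did not part (-0.08, limma adjusted p = 0.673), it was 0.12 and -0.32, opposite in sign. These are plain means, and the only exercised animals in the lower set, 7 and 8, are castrated males, so sex is not separated there. FGFR1 on Ssc.24095.2.A1_at gave -0.17 and -0.18. What the sets stand for, and their part in these values, was not tested.

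**Figure D5:**
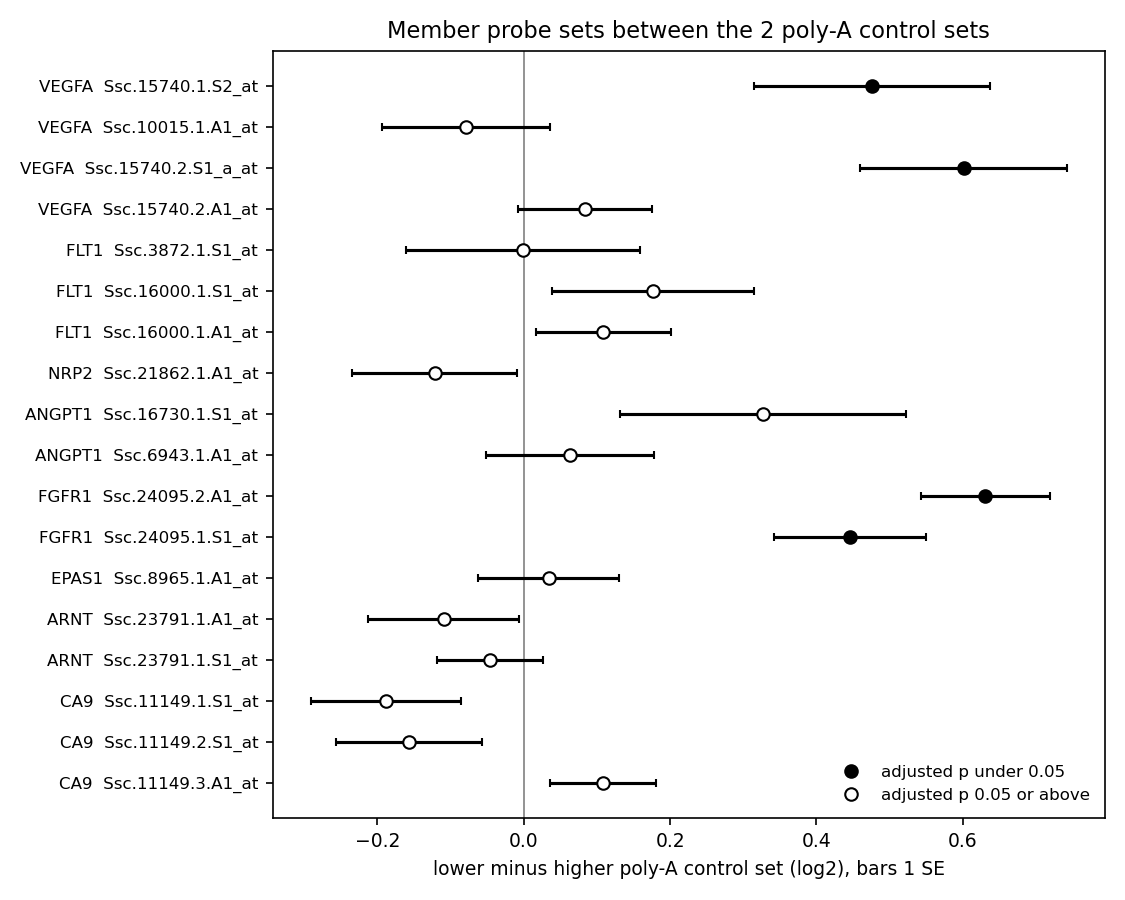
Difference (log2, lower minus higher poly-A control set) of the 18 probe sets, with training and sex in the fit. Points are limma estimates, bars are 1 SE, and filled points passed the adjusted threshold. The 4 filled points are 2 probe sets of VEGFA and both of FGFR1, between 0.45 and 0.63.

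The wider pathway was read gene by gene on the brightest probe set, where, as above, 5.11% of 6765 genes rose and 4.91% fell, and the median difference was 0.01. The lists here and in the next paragraph include the 8 genes themselves, so they are not separate from the values above. Of 11 listed VEGF ligands and receptors 5 were measured, and 0 rose and 0 fell (median -0.01). KDR, the main signalling receptor for VEGFA, differed by 0.09 (SE 0.138, limma adjusted p = 0.747), and VEGFB, a ligand of FLT1 abundant in heart, by -0.01 (SE 0.181, limma adjusted p = 0.986). NRP1 and VEGFC were not analysed here. Of 8 angiopoietin and TIE genes 6 were measured, and 0 rose and 0 fell (median 0.00). TEK differed by -0.05 (limma adjusted p = 0.860) and ANGPT2, its context-dependent antagonist, by 0.11 (limma adjusted p = 0.682). Of 14 FGF and PDGF genes 5 were measured, and 0 rose and 0 fell (median 0.05).

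The oxygen-sensing arm was read in the same way. Of 14 genes listed as hypoxia-inducible factor machinery, ARNTL among them, 8 were measured, and 0 rose and 0 fell (median -0.11). HIF1A differed by -0.02 (SE 0.136, limma adjusted p = 0.943). Of 44 listed hypoxia response targets 31 were measured, and 1 rose, 0 fell and 30 did not pass (median 0.05). The 1 that rose was ANKRD37, an ankyrin repeat protein known as a hypoxia-inducible factor target: exercised animals lay between 6.27 and 6.82 and sedentary animals between 5.86 and 6.58, a difference of 0.33 (SE 0.104, limma adjusted p = 0.0473). That call stood at the edge of the threshold. It held in 3 of the 16 fits with 1 animal left out (those without exercised animal 5, exercised animal 7 or sedentary animal 5), over which the difference ranged from 0.27 to 0.39. It was lost above the 40th percentile of level (adjusted p = 0.0932, or 0.0596 with the poly-A block), with trended and robust eBayes (0.0514), with array weights (0.0542) and in the higher poly-A control set alone (0.24, adjusted p = 0.187). With the poly-A block on all probe sets it passed (0.30, limma adjusted p = 0.0363), and so did TPI1, a glycolytic enzyme (0.24, limma adjusted p = 0.0302).

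Of 15 angiogenesis inhibitors and notch genes 7 were measured, and 0 rose and 0 fell on the brightest probe sets (median -0.08). On all 17 of their probe sets 2 rose and 1 fell, near the 13.4% of all probe sets called, and these 3 are named after their values were seen. THBS1, a matrix protein that restrains angiogenesis, rose by 0.29 (limma adjusted p = 0.0423) on Ssc.924.1.A1_at, and HEY2, a notch target of ventricle and artery, by 0.29 (limma adjusted p = 0.0413) on Ssc.9478.1.A1_at. Both of these probe sets were dim, with mean levels of 4.87 and 3.92. The brightest probe sets of THBS1 and HEY2 differed the other way, by -0.12 and -0.05, without passing. JAG1, a notch ligand, fell by 0.25 on Ssc.8466.1.A1_at (limma adjusted p = 0.0115), with exercised animals from 5.88 to 6.23 and sedentary animals from 6.16 to 6.44. Its brightest probe set differed by -0.08 and did not pass. With 1 animal left out, the call of JAG1 held in 16 of 16 fits, that of THBS1 in 4 and that of HEY2 in 5, and with array weights THBS1 was lost (0.22, limma adjusted p = 0.0549). In the higher poly-A control set alone all 3 were lost (limma adjusted p = 0.0704 for JAG1, 0.133 for THBS1 and 0.131 for HEY2), and HEY2 was also lost with the replicate block (0.0535).

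Markers of other cells of the ventricle were read over whole lists. Mural cell markers (8 measured), cardiomyocyte markers (13) and fibroblast markers (7) each had 0 that rose and 0 that fell on the brightest probe set, with medians of 0.04, 0.01 and -0.14. With the poly-A block 1 cardiomyocyte gene passed, RYR2, the calcium release channel (0.31, limma adjusted p = 0.0491). Mural markers averaged 9.94 to 10.32 in exercised and 9.90 to 10.52 in sedentary animals, and fibroblast markers 9.55 to 10.25 and 9.56 to 10.43. KCNJ8, a potassium channel subunit of pericytes, fell on 2 dimmer probe sets (-0.38 and -0.54, limma adjusted p = 0.0331 and 0.0083), which held in 8 and 16 of the 16 fits with 1 animal left out. The first was lost above the 40th percentile of level (0.0696) and in the higher poly-A control set alone (0.145), and both were lost above the 60th percentile (0.134 and 0.0555). A dim probe set each of RYR2 and of FN1, a matrix protein, rose (0.41 and 0.40, limma adjusted p = 0.0132 and 0.0377). Both were lost in the higher set alone (0.0692 and 0.224), and FN1 with array weights (0.0548) and in 8 of the 16 fits with 1 animal left out. Of 11 macrophage and blood markers 3 rose and 0 fell (median 0.18), where 5.11% of all genes rose and 4.91% fell. ITGAM rose by 0.54, CD3G by 0.56 and CD79B by 0.26 (limma adjusted p = 0.00399, 0.0155 and 0.0126). CD79B was the dimmest of the 11, with a mean level of 4.00. In the higher poly-A control set alone ITGAM kept its call, while CD3G (0.37, limma adjusted p = 0.1002) and CD79B (0.26, limma adjusted p = 0.0796) lost theirs. With the poly-A block 4 of the 11 passed, the fourth being AIF1, a macrophage gene (0.43, limma adjusted p = 0.0489). That list averaged 6.49 to 6.95 in exercised and 6.24 to 7.03 in sedentary animals. The part of cell makeup in the values of the 8 genes was not tested.

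The genes whose signal ran most like each of the 8 were sought among 4926 genes above the median level, by Pearson's r over 16 arrays after the combination means were taken out. The points share array and poly-A control set, and the values are descriptions. VEGFA on Ssc.15740.1.S2_at ran closest to COX10 (0.862), ZRANB1 (0.857) and MARCH6 (0.847). FLT1 ran closest to DNAJC3 (0.829), FABP5 (0.807) and YTHDF2 (0.777), and NRP2 to SLC50A1 (0.818), WDR55 (0.802) and ARF1 (0.751). ANGPT1 ran closest to BACE1 (0.768), TMEM40 (0.742) and ROPN1L (0.738). Within the 11 arrays of the higher poly-A control set its values were 0.671, 0.466 and 0.738. Those of VEGFA, FLT1 and NRP2 lay there between 0.747 and 0.917. The tightest likeness was that of FGFR1, with ITGA5 (0.982), AKT1S1 (0.973) and BAG6 (0.971), and within the 11 arrays of the higher set these were 0.965, 0.944 and 0.939.

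EPAS1 ran closest to MYADM (0.803), EDC3 (0.795) and MYC (0.753). ARNT ran closest to S1PR1 (0.848), FADD (0.823) and ORC6 (0.782), and CA9 to LOC100524873 (0.889), CFAP36 (0.882) and PTGR2 (0.858). Within the higher set the values of ARNT were 0.757, 0.783 and 0.636, and those of EPAS1 and CA9 lay between 0.759 and 0.887. NRP2, ANGPT1 and ARNT lie below the median level themselves and could not be found as neighbours.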

How the data were processed

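The deposited table holds 1 column per array of log2 signals, which the authors computed from Affymetrix scans, and its summarisation and normalization are not given in the sources used here. Per the labels, frozen myocardium was crushed, RNA was extracted with Trizol and cleaned on columns, and biotinylated cRNA was hybridised. Values lay between 2.87 and 14.9 with near-equal array medians, so they were used as deposited. Of 24123 probe sets, 188 controls were left out, and 23935 were tested without a filter on level. The platform annotation, whose symbols can be old, gave 10069 probe sets 1 symbol, 198 several and 13668 none, and those with several named no gene. All 8 genes matched RefSeq names by gene ID.

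With limma 3.58.1 in R 4.3.3, each of the 4 training-by-sex groups was given its own mean (12 residual degrees of freedom), with Benjamini-Hochberg adjustment over all probe sets. Contrasts were training, training within each sex, their difference, and sex. Probe sets of VEGFA were compared by exact permutation and by correlation with 100000 resamples (scipy 1.17.1). The fit was tested on simulated data. All probe sets of the 8 genes are described. Of other lists, genes past the threshold on their brightest probe set, 7 pathway genes fixed by name and, for each of the 8, the 3 genes most like it are named. The 8 genes, the lists and the tests were chosen with earlier results of these data known. Alternatives were quantile normalization, median centring, filters at the 40th and 60th percentile of level, trended and robust eBayes, array weights, the poly-A control set as a block or its larger set alone, a replicate block, no sex term, gene means, and each array left out in turn. The poly-A block with the 40th percentile filter, and the difference between the sets, were added after seeing the data.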

Additional observations from a re-analysis of the deposited data

Results flagged for a closer look

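In 36 groups of 8 animals (18 probe sets in each training group), 4 had an animal that stood apart by Dixon's test, which chance gives in about 1 in 20 groups. On VEGFA Ssc.10015.1.A1_at, exercised animal 5 read 10.62, where the next animal of its group read 10.18 (a gap of 0.53 of the range), and sedentary animal 7 read 10.44, where the next read 10.21 (0.579 of the range). On VEGFA Ssc.15740.2.A1_at, sedentary animal 6 read 4.59 and the next 4.33 (0.752 of the range). On CA9 Ssc.11149.2.S1_at, sedentary animal 3 read 4.56 and the next 4.37 (0.586 of the range). None of the 4 animals stood apart on more than 1 of the 18 probe sets.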

How the results depend on the processing

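Calls that FLT1, NRP2 and ARNT gained under single alternatives are given with their values in the results, except those of the replicate block. The count of all probe sets that changed with training, 3197, depended on the filter on level: 631 above the 40th percentile, 77 above the 60th and 1317 with the poly-A block above the 40th. For females, 890 became 85, 1 and 177 under these 3, and 2387 with array weights. For castrated males, 902 became 56, 0 and 223, with 1553 under the poly-A block and 124 in the higher set alone. For sex, 22 became 5 above the 60th percentile, 14 with block and filter, and 40 with array weights. With 1 animal left out, the counts were 2513 to 3108 for training, 462 to 890 for females, 471 to 1010 for castrated males, 0 throughout for their difference and 20 to 83 for sex, the highest without sedentary animal 8. Same-numbered animals correlated between -0.0331 and 0.386, over 0.1 in 5 of 8 pairs, and the numbers were not taken as pairs. This check cannot exclude pairing, since differently numbered animals were not set beside them. The replicate block gave 3528 for training, 333 for females, 402 for castrated males and 13 for sex, and under it FLT1 Ssc.3872.1.S1_at (adjusted p = 0.0267) and FGFR1 Ssc.24095.2.A1_at (0.0433) passed limma's threshold, against 14.7% of all. The VEGFA correlation of 0.818 was 0.716 in the higher set (permutation test, adjusted p = 0.098), there with the group means left in. Differences near 0 turned sign. With array weights FLT1 Ssc.16000.1.A1_at was 0.012, FGFR1 Ssc.24095.1.S1_at 0.015 and VEGFB 0.13. With the poly-A block ANGPT1 Ssc.6943.1.A1_at was 0.0054, FGFR1 Ssc.24095.1.S1_at 0.026 and VEGFB 0.090, the latter 2 the same with the 40th percentile filter. In the limma fit of the higher set alone, with sex, VEGFA Ssc.10015.1.A1_at was 0.16, FLT1 Ssc.16000.1.A1_at 0.071, ANGPT1 Ssc.6943.1.A1_at 0.066, FGFR1 Ssc.24095.1.S1_at 0.032, VEGFB 0.13, KDR -0.040 and ANGPT2 -0.20. With 1 animal left out, the ranges that crossed 0 were -0.089 to 0.049 for VEGFA Ssc.10015.1.A1_at, -0.064 to 0.015 for FLT1 Ssc.16000.1.A1_at, -0.072 to 0.032 for ANGPT1 Ssc.6943.1.A1_at, -0.11 to 0.034 for FGFR1 Ssc.24095.1.S1_at, -0.030 to 0.15 for KDR, -0.11 to 0.046 for HIF1A, -0.12 to 0.017 for TEK and -0.069 to 0.12 for VEGFB. The cause of these changes was not tested. With the filters, the share with an unadjusted limma p under 0.05, which no adjustment touches, was lower too. It was 27% of all probe sets, 19.2% of those above the 40th percentile and 14.3% of those above the 60th. A last count covers alternatives other than leaving out an animal. It takes in single probe sets of the 8 genes and of other pathway and marker genes. It also holds the FLT1 difference between the sexes and the 8 gene means. Of these values 303 kept direction and side of the threshold, 20 lost a call, 5 gained one and 15 turned sign. Of the 5 gained, 1 is the ARNT gene mean. Detection calls were not used here, so how far the 9 dim probe sets lie above background is unknown.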
